A study of Mus musculus with 6 samples.

Results

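Translation initiation factor genes were taken as the protein-coding genes of the RefSeq GRCm38 annotation, on chromosomes 1 to 19, X and Y, whose symbol begins with Eif and a digit from 1 to 6. There were 56 such genes among 21887 protein-coding genes, and they are called Eif genes here. They were chosen because Flag-Rxra peaks are frequent near them, so the number of Eif genes with such a peak describes the choice and was not tested. The study profiled OG2X129 mouse embryonic fibroblasts under chemical reprogramming by CUT&Tag, in which an antibody brings a transposase to the chromatin it binds and the released fragments are sequenced. Its 6 samples fell into 3 groups of 2: cells treated with CD and profiled for H3K27ac, the histone acetylation found at promoters and enhancers in use, cells treated with DMSO and profiled for the same mark, and cells that overexpressed Flag-Rxra, the tagged retinoid X receptor alpha, profiled with a Flag antibody. The series title mentions CD3254, which activates this receptor. The labels give neither the day of sampling, nor whether the Flag-Rxra cells received CD, nor whether replicates were separate cultures.

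The data were 4 peak lists: 104437 H3K27ac regions after CD, 75482 after DMSO, 28243 Flag-Rxra peaks in replicate 1 and 45999 in replicate 2. Each H3K27ac condition had 1 list for both of its samples, so its values have no replicate error and no test was possible. The lists hold no read counts, and depth is unknown. Fold enrichment and −log10 q, where q is the p-value adjusted for the many places examined, are the authors' own values for each peak. A Flag-Rxra peak was shared when a replicate 1 peak overlapped a replicate 2 peak by at least 1 bp, and 17623 peaks were. No control library was used here, and a called peak alone does not establish that Rxra binds. Among 10 fibroblast markers, 5 had a shared Flag-Rxra peak within 1 kb of an end. A CD H3K27ac region lay there at 4 and a DMSO region at 4. Over all protein-coding genes these shares were 32.6%, 38.3% and 35.8%. Col1a1 and Prrx1 had no H3K27ac region within 2.5 kb of their ends in either list, and every other fibroblast marker had one in at least 1 list. Of 5 macrophage markers, 1 had a shared peak, 2 a CD region and 0 a DMSO region within 1 kb. None of 6 pluripotency markers had a shared peak, and 1 had an H3K27ac region within 1 kb in each list. Of 5 endothelial markers, 1 had a shared peak, 1 a CD region and 3 a DMSO region within 1 kb, and 4 had more H3K27ac bases after CD and 1 more after DMSO within 2.5 kb.

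Translation begins when the small ribosomal subunit, loaded with the initiator tRNA, is brought to the capped end of an mRNA and scans to the start codon. The factor eIF2 carries the tRNA, eIF2B recharges eIF2 with GTP, eIF3 holds the subunit and the mRNA together, and the eIF4 factors bind the cap and unwind the leader. Kinases that phosphorylate eIF2 under stress, and proteins that sequester the cap-binding factor eIF4E, lower the rate of initiation. RXRα is a nuclear receptor that binds DNA mostly as a partner of other receptors, at repeats of the sequence AGGTCA.

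A shared Flag-Rxra peak lay within 1 kb of an end of 35 of the 56 Eif genes (62.5%), against 32.6% of all protein-coding genes. The replicate 1 list, taken by itself, had a peak at 43 Eif genes (76.8%, against 41.7% of all genes) and the replicate 2 list at 42 (75.0%, against 42.1%). Most of the peaks lay at the starts of genes. The annotated start was known for 44 Eif genes, of which 29 (65.9%) had a shared peak within 1 kb of a start, against 34.3% of the 17492 genes with a known start. The opposite end had one at only 2 of 44, Eif4a1 and Eif4g1 (4.55%, against 3.37% of all genes). In 30 of the 35 genes the peak reached the annotated gene end itself, a count not given here for all genes with a shared peak. By the nearest shared peak of each gene, the farthest out within 1 kb was Eif4e1b, with the peak edge 573 bp from the gene. Just outside that limit was Eif3i, whose nearest shared peak lay 1119 bp away with folds of 6.42 in replicate 1 and 8.33 in replicate 2.

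**Figure D1:**
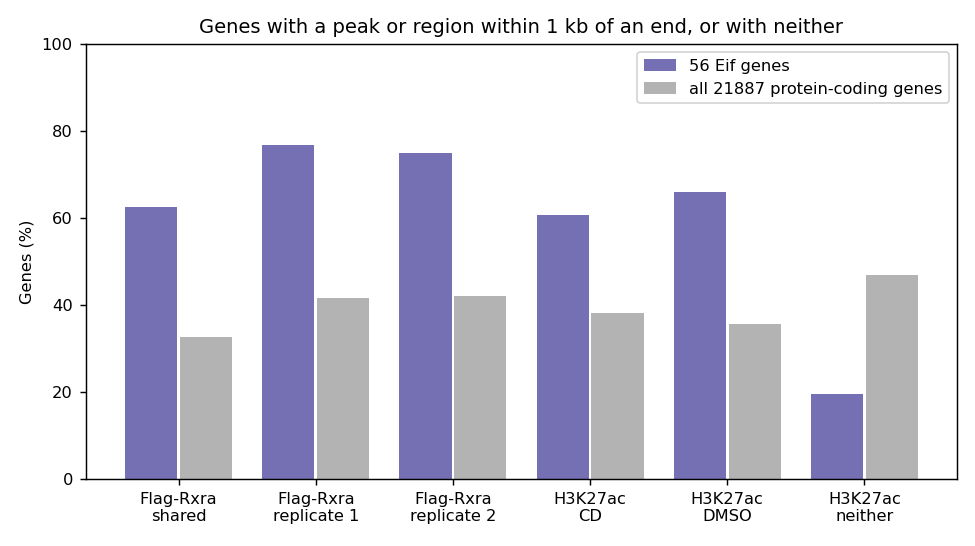
Percentage of the 56 Eif genes (left bars) and of all 21887 protein-coding genes (right bars) with a Flag-Rxra peak or an H3K27ac region within 1 kb of a gene end, or with no H3K27ac region in either list. Shared Flag-Rxra peaks lay at 62.5% of Eif genes and 32.6% of all genes, and 19.6% of Eif genes and 47.0% of all genes had no H3K27ac region there.

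The best peak of each gene, by the mean of its ranks by fold in the 2 lists, had a median fold of 12.8 in replicate 1 and 16.9 in replicate 2. Over all genes with a shared peak, these medians were 11.3 and 15.7. The lowest and highest folds at Eif genes were 5.52 and 22.7 in replicate 1, with 9.54 and 30.2 in replicate 2. The Eif medians thus lay slightly above those of all genes with a shared peak, a difference that was not tested. The fold was higher in replicate 2 at 28 of the 35 genes, as it was at 83.4% of all genes with a shared peak. At 6 genes, Eif1, Eif2s1, Eif2b2, Eif4e2, Eif4g1 and Eif4enif1, the replicate 2 fold was 2 or more times the replicate 1 fold. How often this held over all genes with a shared peak is not given here. The Spearman correlation of the folds between the replicates was 0.468 over the 35 genes and 0.537 over all genes with a shared peak, whose peaks share the same libraries. Summits of the best peaks differed between the replicates by a median of 61 bp and at most 224 bp.

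**Figure D2:**
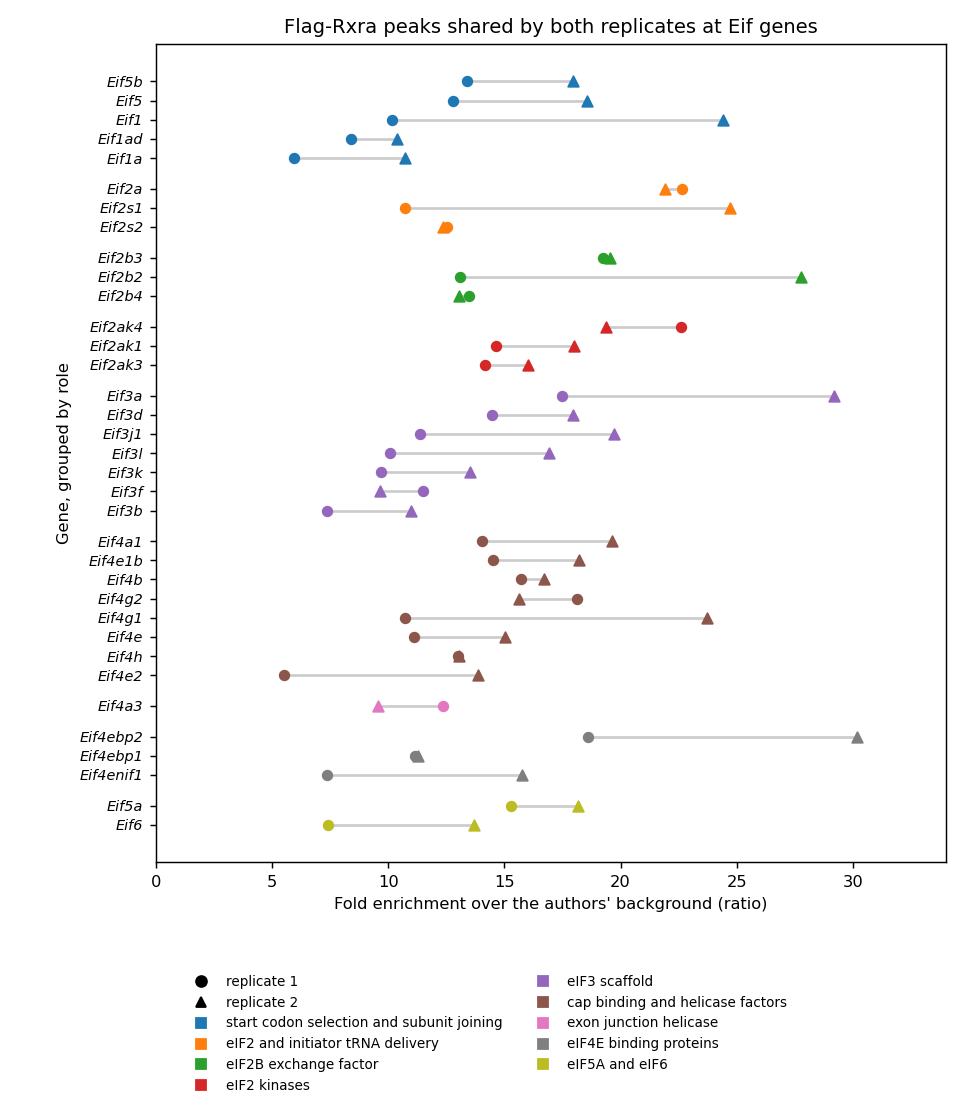
Fold enrichment of the best shared Flag-Rxra peak at each of 35 Eif genes, in replicate 1 (circles) and replicate 2 (triangles), grouped and coloured by the role of the gene product. Eif4ebp2 and Eif3a reached the highest folds in replicate 2, at 30.2 and 29.2, and Eif2a and Eif2ak4 in replicate 1, at 22.7 and 22.6.

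Of the 29 genes with a known start, 24 had the summit of the best peak within 250 bp of an annotated start. The summit lay upstream of the start in 21 and downstream in 8, with a median of −66 bp in the direction of the gene. Eif5b stood farthest upstream, at −751 bp, and Eif4e farthest downstream, at 242 bp. The Eif4e peak overlapped the annotated microRNA gene Mir1956 and was the only one of the 39 shared peaks near Eif genes to overlap an annotated tRNA, rRNA, snRNA, snoRNA or microRNA gene. At 11 of the 35 genes the best peak also lay within 1 kb of an end of another protein-coding gene, among them Serp1 beside Eif2a, Atp6v1d beside Eif2s1, Txndc9 beside Eif5b, Snx17 beside Eif2b4 and Senp3 beside Eif4a1. The peaks of these 11 cannot be ascribed to the Eif gene rather than its neighbour. The same counts of summits and neighbours over all genes with a shared peak are not given here. They are therefore not read as traits of Eif genes.

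**Figure D3:**
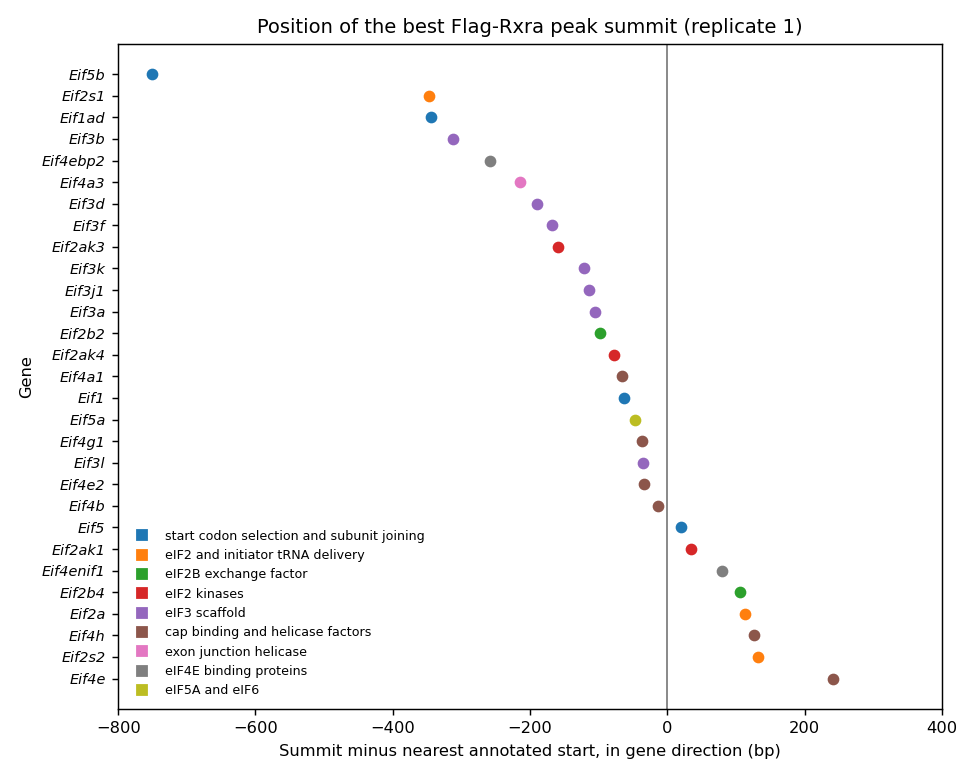
Distance in bp from the nearest annotated start to the replicate 1 summit of the best shared Flag-Rxra peak, in the direction of the gene, for 29 Eif genes. Each point is a gene, negative values lie upstream, and 24 of the 29 points lie within 250 bp of the start.

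The promoters printed here show the sequence before the start at 6 genes, each the best-ranked of its role among those whose annotated start lies inside a shared peak. Eif4enif1 is the one of them with an AGGTCA. They are the 250 bases before the start from RefSeq, build GRCm38.p6, read in the direction of the gene. Capitals mark the GC box (GGGCGG or its reverse CCGCCC), the CCAAT box (CCAAT or ATTGG), the E-box CACGTG and AGGTCA (or TGACCT).
Eif2a (chr3:58525571-58525820, plus strand): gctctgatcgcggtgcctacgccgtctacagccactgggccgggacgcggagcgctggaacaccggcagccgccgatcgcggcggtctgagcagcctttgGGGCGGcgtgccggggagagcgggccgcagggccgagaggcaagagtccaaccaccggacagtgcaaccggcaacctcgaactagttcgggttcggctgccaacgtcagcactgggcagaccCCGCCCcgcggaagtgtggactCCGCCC
Eif2ak4 (chr2:118388367-118388616, plus strand): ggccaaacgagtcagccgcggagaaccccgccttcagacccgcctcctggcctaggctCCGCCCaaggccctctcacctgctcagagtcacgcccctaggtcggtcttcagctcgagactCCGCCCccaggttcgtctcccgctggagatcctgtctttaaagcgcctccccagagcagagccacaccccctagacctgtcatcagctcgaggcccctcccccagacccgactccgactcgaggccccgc
Eif2b2 (chr12:85219231-85219480, plus strand): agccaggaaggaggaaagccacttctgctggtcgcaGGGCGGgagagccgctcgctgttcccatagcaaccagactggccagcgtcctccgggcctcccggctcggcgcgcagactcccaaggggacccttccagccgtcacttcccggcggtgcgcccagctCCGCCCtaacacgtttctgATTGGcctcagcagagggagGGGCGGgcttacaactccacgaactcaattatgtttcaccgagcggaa
Eif3a (chr19:60790694-60790943, minus strand): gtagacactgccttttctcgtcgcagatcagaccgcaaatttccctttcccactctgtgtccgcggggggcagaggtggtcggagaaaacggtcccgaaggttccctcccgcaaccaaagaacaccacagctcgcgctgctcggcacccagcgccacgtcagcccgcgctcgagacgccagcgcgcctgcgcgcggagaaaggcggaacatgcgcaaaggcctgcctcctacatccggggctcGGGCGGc
Eif4a1 (chr11:69672424-69672673, minus strand): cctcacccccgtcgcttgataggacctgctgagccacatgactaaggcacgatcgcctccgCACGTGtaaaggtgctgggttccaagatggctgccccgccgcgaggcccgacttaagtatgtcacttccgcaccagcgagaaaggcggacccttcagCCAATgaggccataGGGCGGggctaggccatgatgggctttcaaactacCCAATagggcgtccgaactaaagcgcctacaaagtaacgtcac
Eif4enif1 (chr11:3202103-3202352, plus strand): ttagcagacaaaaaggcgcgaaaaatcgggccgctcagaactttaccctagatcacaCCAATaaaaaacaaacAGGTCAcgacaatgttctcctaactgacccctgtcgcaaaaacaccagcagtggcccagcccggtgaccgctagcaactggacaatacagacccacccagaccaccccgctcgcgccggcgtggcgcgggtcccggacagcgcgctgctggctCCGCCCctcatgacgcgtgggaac
The shared peak covers only part of some windows: the outer part of the Eif2a window, with its outermost GC box, lies outside the peak in both replicates. The Eif2a window holds 3 GC boxes, the nearest beginning 6 bases before the start, and Eif3a has 1 that begins 7 bases before it. In Eif4a1 a GC box lies between 2 CCAAT boxes that begin 92 and 43 bases before the start. The AGGTCA of Eif4enif1 begins 177 bases before the start, inside the replicate 1 peak and outside the replicate 2 peak, and the peak summit there lay 80 bp downstream of the nearest annotated start.

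Promoter windows of 300 bases, from 250 before to 50 after the outermost annotated start, were searched on both strands. AGGTCA was found in 2 of the 29 windows of Eif genes with a shared peak, Eif2b2 and Eif4enif1. Of 15 without one, 1 had it, Eif2s3x. It was found in 14.5% of windows of 17492 protein-coding genes, and in 11.3% of those with a shared peak. In Eif2b2 it lies after the start. The direct repeat AGGTCANAGGTCA was found in no Eif window and in 0.0515% of all windows. GGGCGG was found in 22 of 29 windows with a shared peak and 10 of 15 without, against 46.3% of all windows and 70.3% of windows of all genes with a shared peak. CCGGAAG, a core sequence of ETS factor sites, was found in 8 of 29 and 6 of 15, against 11.9% of all windows and 20.4% of those with a shared peak. CACGTG was found in 6 of 29 and 2 of 15, against 7.91% of all windows and 10.4% of those with a shared peak. CCAAT was found in 11 of 29 and 3 of 15, against 39.2% and 44.3%. No mismatch was allowed, and matches of different motifs may overlap. The windows of Eif genes with a shared peak had a median GC content of 62.0% and 24 CpG dinucleotides, those of Eif genes without one 58.7% and 22, and all windows 56.3% and 13. Windows of all genes with a shared peak had 62.0% and 22, so the Eif windows with a peak had the same median GC content as those of all genes with peaks.

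Factors of start codon selection and subunit joining had a shared peak at 5 of 7 genes. Eif5b, the GTPase that joins the ribosomal subunits, had its best peak (chr1:37996938-37997429) with folds of 13.4 in replicate 1 and 17.9 in replicate 2, toward Txndc9, and a weaker second peak across its start with folds of 6.57 and 6.60. Eif5, which triggers GTP hydrolysis by eIF2, had folds of 12.8 and 18.6 with the summit 20 bp from its start. Eif1, which guards start codon fidelity, had folds of 10.2 and 24.4. The 2 replicates thus gave Eif5 and Eif5b about the same height, and Eif1 the lowest of the 3 in replicate 1 and the highest in replicate 2. Eif1ad and Eif1a had weaker peaks. The replicate 1 peak of Eif1ad spanned its start and lay within 1 kb of an end of Banf1, and that of Eif1a lay near Tmed7. Eif1ax, which encodes eIF1A on the X chromosome, had no peak in either list, and Eif1b had one in replicate 2 only, with a fold of 9.50.

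Genes for eIF2 and for delivery of the initiator tRNA had a shared peak at 3 of 6. Eif2a, an alternative tRNA-binding factor distinct from eIF2, had folds of 22.7 and 21.9 (chr3:58525709-58526087), the highest of all Eif genes in replicate 1. Eif2s1, which encodes the α subunit that stress kinases phosphorylate, had folds of 10.7 and 24.7. Eif2s2, which encodes the β subunit, had 12.5 and 12.4. The α and β subunits were therefore alike in replicate 1 and differed in replicate 2. Neither gene for the γ subunit had a shared peak: Eif2s3x, on the X chromosome, had one in replicate 1 only, with a fold of 7.49, and Eif2s3y, on the Y chromosome, had none. Eif2d, which can deliver tRNA to the ribosome, had none in either list.

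The exchange factor eIF2B had a shared peak at 3 of its 5 subunit genes. Eif2b3 had folds of 19.2 and 19.6 (chr4:117019409-117019699). Eif2b2 had 13.1 and 27.8 (chr12:85219267-85219556). Eif2b4 had 13.5 and 13.0 beside Snx17. Eif2b2 ranked above Eif2b3 in replicate 2 and below it in replicate 1. The others each had a peak near the start in 1 list: Eif2b5, the catalytic ε subunit, in replicate 1 with a fold of 9.72, and Eif2b1 in replicate 2 with a fold of 11.5.

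Of the 4 eIF2 kinases, 3 had a shared peak. Eif2ak4, or GCN2, which senses amino acid shortage, had folds of 22.6 and 19.4 (chr2:118388311-118388780). Eif2ak1, or HRI, which senses haem shortage, had 14.6 and 18. Eif2ak3, or PERK, the kinase of endoplasmic reticulum stress, had 14.1 and 16. Eif2ak4 was the highest of them in both lists. Eif2ak2, or PKR, which is activated by double-stranded RNA, had a peak over its start in replicate 1 only, with a fold of 8.80 and a −log10 q of 13.1.

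In the 14 genes of eIF3, the largest initiation factor, 7 had a shared peak and 7 did not. Eif3a, the scaffold of the complex, had folds of 17.5 and 29.2 (chr19:60790268-60791106). Eif3d, whose product can bind the cap itself, had 14.5 and 18. Eif3j1, for a loosely held subunit, had 11.4 and 19.7. Eif3a was the highest in both lists. The remaining 4, Eif3b, Eif3f, Eif3k and Eif3l, had folds of 7.36 to 11.5 in replicate 1 and of 9.64 to 16.9 in replicate 2. Eif3c had a peak in each list, with folds of 14.4 in replicate 1 and 13.7 in replicate 2, but they did not overlap. Eif3h and Eif3i had peaks in replicate 1 only, with folds of 11.3 and 7.58. Eif3m and Eif3j2 had peaks in replicate 2 only, and these were high, at 22.2 and 23.1, within 32 bp and 29 bp of a gene end. Eif3e and Eif3g had no peak in either list. How reads that match both Eif3j1 and its close copy Eif3j2 were treated is not stated in the sources used here, and the values of the pair are uncertain for that reason.

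Cap binding and helicase factors had a shared peak at 8 of 11 genes. Eif4a1, the RNA helicase that unwinds mRNA leaders, had folds of 14.0 and 19.6 at its start (chr11:69672183-69672681) and 4.19 and 6.90 in a second peak beyond its other end, 656 bp from it and within 1 kb of an end of Cd68. Eif4e1b, an eIF4E-like gene of the oocyte, had folds of 14.5 and 18.2, but its summit lay 733 bp from the gene and near Tspan17. Eif4b, a stimulator of the helicase, had 15.7 and 16.7 with the summit 14 bp from the start. These 3 were close in both lists. Eif4g1, the scaffold that links cap, helicase and eIF3, had 10.7 and 23.7 at its start and 11.6 and 15.2 in a peak past its other end, toward Fam131a. Eif4g2, which supports initiation without the cap, had 18.1 and 15.6, so the 2 scaffolds stood in opposite order in the replicates. Eif4e, the cap-binding protein, had 11.1 and 15, Eif4h 13.0 and 13.0, and Eif4e2 the lowest replicate 1 fold of the 35, 5.52, against 13.9 in replicate 2. Eif4a2, a close relative of Eif4a1, had peaks of 7.90 in replicate 1 and 8.62 in replicate 2 that did not overlap. Eif4g3 and Eif4e3 had none.

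Proteins that bind eIF4E had a shared peak at 3 of 4 genes. Eif4ebp2, a repressor released by mTORC1, ranked first of all Eif genes by mean rank, with folds of 18.6 and 30.2 (chr10:61452777-61453130). Eif4ebp1, a repressor of the same kind, had 11.1 and 11.3 in a peak of 1455 bp, the widest of the 35. Eif4enif1, which carries eIF4E into the nucleus, had 7.35 and 15.7 beside Sfi1. The paralogue Eif4ebp3 had a peak in replicate 1 only, with a fold of 6.77. Eif4a3, the helicase of the exon junction complex, had folds of 12.4 and 9.54, and Eif4a3l1 had no peak. Eif5a, the hypusine-bearing factor that acts mainly in elongation, had folds of 15.3 and 18.2 with the highest replicate 1 −log10 q of the 35, 219. Eif6, which keeps the large subunit from joining early, had 7.40 and 13.7, with the summit 585 bp from a gene end and near Mmp24 and BC029722. A second Eif6 peak, 443 bp from the opposite end, had 6.86 and 8.30. Which end is the start of Eif6 was not known here. Eif5a2 had a peak in replicate 2 only, at 14.6.

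In all, 8 of the 21 Eif genes without a shared peak had none in either list within 1 kb, namely Eif2d, Eif3e, Eif4g3, Eif4e3, Eif4a3l1, Eif3g, Eif1ax and Eif2s3y. Single-list peaks lay at the other 13, at 8 in replicate 1 and 7 in replicate 2, with Eif3c and Eif4a2 in both. Out to 50 kb from their ends, 51 of the 56 Eif genes (91.1%) had a shared peak, against 68.1% of all genes. The median was 3 shared peaks per Eif gene and 1 per gene over all genes. Eif2b3, Eif2b4 and Eif3l had the most, 7 each, and Eif3e, Eif4e3, Eif4a3l1, Eif1ax and Eif2s3y had none.

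H3K27ac regions lay within 1 kb of an end of 34 of the 56 Eif genes after CD (60.7%, against 38.3% of all genes) and of 37 after DMSO (66.1%, against 35.8%). Both lists had a region at 26 Eif genes (46.4%, against 21.2% of all genes), and neither had one at 11 (19.6%, against 47.0%). The cells were profiled in bulk, where fewer cells with the mark and less mark per cell cannot be told apart. The strongest reached a −log10 q of 4.71 at Eif2s2 after CD and of 2.5 at Eif2s3x after DMSO, with medians of 1.69 and 1.92 over the genes with a region, in lists that stop at 1.00. At a −log10 q of 2 or more, 11 Eif genes had a region after CD, against 6.65% of all genes, and 15 had one after DMSO, against 8.84%.

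Eif genes with a shared Flag-Rxra peak had an H3K27ac region more often than those without one. After CD a region lay at 26 of 35 (74.3%) and at 8 of 21 (38.1%), and over all genes at 60.9% of those with a shared peak and 27.4% of those without. After DMSO it lay at 27 of 35 (77.1%) and at 10 of 21 (47.6%), against 64.1% and 22.2% over all genes. The order was thus the same over all protein-coding genes, and whether its size differs at Eif genes was not tested. Of the 35 best peaks themselves, 17 overlapped a region in both lists, 4 in CD only, 8 in DMSO only and 6 in neither. The 6 were those of Eif2ak1, Eif2b4, Eif3f, Eif3j1, Eif4e1b and Eif4enif1. This split of best peaks has no counterpart here over all genes with a shared peak. No H3K27ac region within 1 kb of an Eif gene end reached a −log10 q of 5.

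A region within 1 kb was called in 1 condition only at 19 Eif genes. After CD only it lay at 8 genes (14.3%, against 17.1% of all genes), namely Eif1b, Eif2ak1, Eif2ak2, Eif2b3, Eif2b4, Eif2d, Eif3l and Eif4g1. After DMSO only it lay at 11 genes (19.6%, against 14.7%), namely Eif2a, Eif2ak3, Eif2b1, Eif2b5, Eif2s3y, Eif3e, Eif3k, Eif3m, Eif4b, Eif4ebp1 and Eif4enif1. Both shares lay within a few percentage points of those of all genes. The regions in question had −log10 q of 1.10 (Eif2ak2) to 2.23 (Eif4g1) after CD and of 1.17 (Eif3k) to 2.15 (Eif4b) after DMSO, close to where the lists stop. Within 2.5 kb, Eif2b5 (530 and 388) and Eif3k (339 and 217) had more covered bases after CD than after DMSO, against their calls. Eif1b, called after CD only, had 191 after CD and 230 after DMSO. The other genes named had more bases in the condition of their call, though Eif3l still had 633 after DMSO.

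Within 2.5 kb of the gene ends, H3K27ac covered more bases after CD at 22 Eif genes (39.3%, against 35.8% of all genes), more after DMSO at 28 (50%, against 32.1%) and the same number at 6 (10.7%, against 32.1%). Fewer Eif genes than genes in general thus had equal coverage, and the shares in both directions were above those of all genes. Covered bases averaged 521 after CD and 628 after DMSO over the 56 genes, and 319.9 and 320.1 over all genes. The median difference, CD minus DMSO, was −19.5 bases over Eif genes and 0 over all genes. Counting only regions at a −log10 q of 2 and above, CD covered more at 11 Eif genes, against 9.69% of all genes, and DMSO at 13, against 11.8%. The median difference was then 0 over Eif genes and over all genes.

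The Eif genes with the largest excess after CD were Eif4g2, Eif4a1, Eif2ak1, Eif2b2, Eif2s1, Eif3h, Eif2d and Eif4ebp3. Eif4g2 had 1580 covered bases after CD and 153 after DMSO, almost all at the end that carries its Flag-Rxra peak. Eif2ak1 had 900 after CD and 0 after DMSO. Eif2b2 had 2125 and 1348, where the bases at its start were nearly equal, 1409 after CD and 1348 after DMSO, and the excess lay at its other end. Eif4a1 had 1379 after CD and 231 after DMSO, of which 1001 and 0 lay around its other end, next to Cd68, and 378 and 231 around its start. Cd68, a macrophage marker, had 2184 bases after CD and 0 after DMSO within 2.5 kb. Of 5 macrophage markers, 3 had more covered bases after CD and none more after DMSO, with Csf1r at 782 and 0, Lyz2 at 180 and 0, and Ptprc and Adgre1 at 0 in both lists. Their part in the Eif4a1 value was not tested, and the windows of Cd68 and Eif4a1 overlap. More bases after CD and after DMSO were found at 5 and 3 of 10 fibroblast markers. The counts were 4 and 1 of 5 endothelial and 1 and 1 of 6 pluripotency markers. Over all genes the shares were 35.8% and 32.1%. Eif2s1 had 1289 and 577, Eif3h 986 and 346, Eif2d 583 and 0, and Eif4ebp3 792 and 266. Around the start of Eif2s1 lay 729 after CD and 577 after DMSO, and around its other end 560 and 0. At their starts, the shared peaks of Eif2s1 and Eif4a1 also lay within 1 kb of an end of Atp6v1d and Senp3. Bases there cannot be ascribed to the Eif gene alone.

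The Eif genes with the largest excess after DMSO were Eif5b, Eif2a, Eif4a2, Eif4e2, Eif4b, Eif4ebp1, Eif1a and Eif1. Eif5b had 420 covered bases after CD and 1808 after DMSO, all at its start. Eif2a had 0 after CD and 1200 after DMSO, and Eif4b 0 and 1105. Eif4a2 had 800 and 1938, with 467 and 1938 around its start. The direction of the start region thus differed between the helicase genes Eif4a1 and Eif4a2, without a replicate to judge it by. Eif4e2 had 474 after CD and 1595 after DMSO, Eif4ebp1 152 and 1195, Eif1a 682 and 1601, and Eif1 1372 and 1960. The shared peaks of Eif5b, Eif2a and Eif1a also lay within 1 kb of an end of Txndc9, Serp1 and Tmed7. Bases there cannot be ascribed to the Eif gene rather than its neighbour. Of the 8 genes with the largest excess after DMSO, 7 had a shared Flag-Rxra peak, and of the 8 with the largest excess after CD, 5 had one. The share was 62.5% over all 56 Eif genes and 32.6% over all protein-coding genes. The difference between the groups of 8 was not tested.

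**Figure D4:**
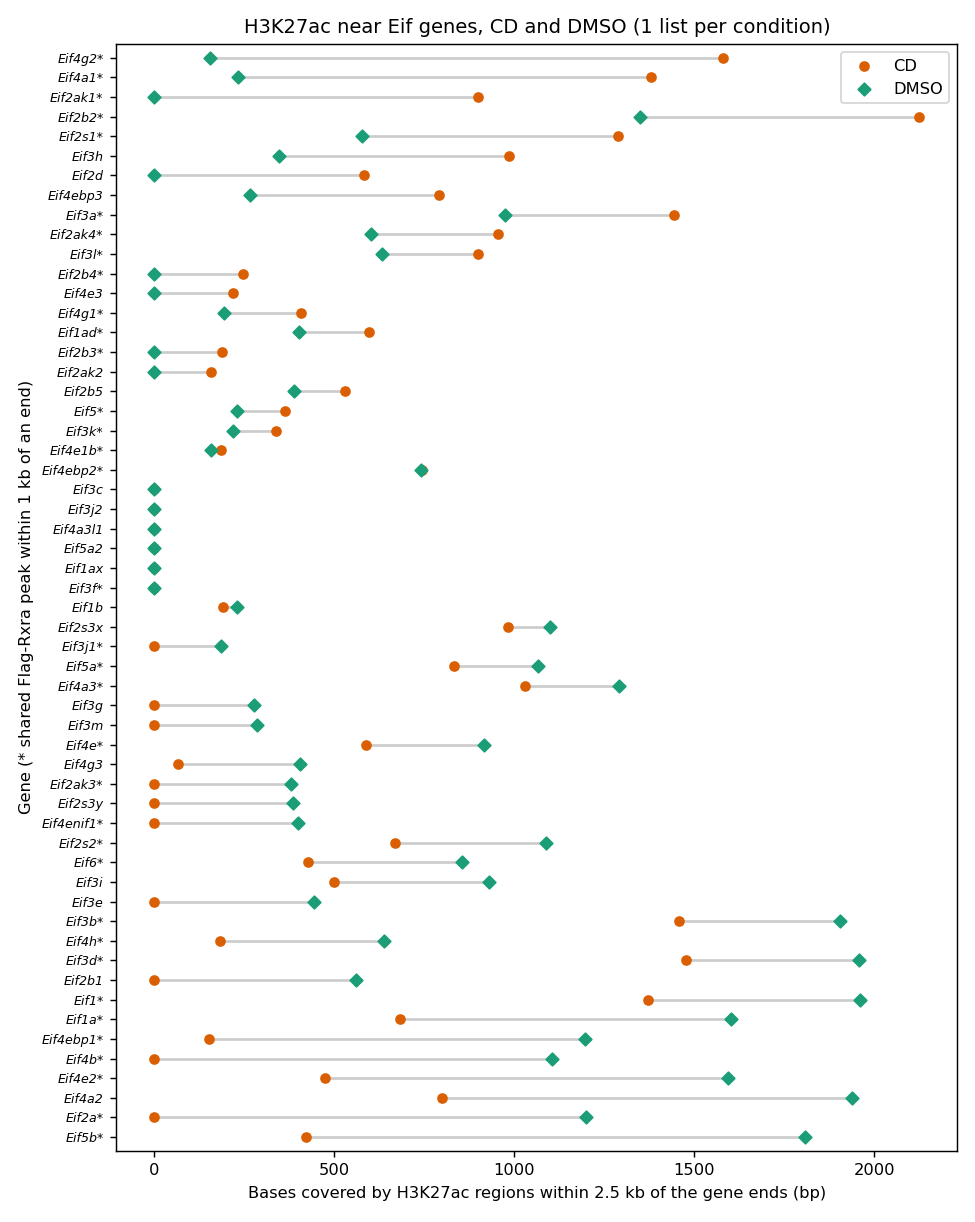
Bases covered by H3K27ac regions within 2.5 kb of the gene ends for all 56 Eif genes, after CD (circles) and after DMSO (diamonds), ordered by the CD minus DMSO difference, with an asterisk at genes with a shared Flag-Rxra peak, 1 list per condition and no error. Eif4g2 stands at the top with 1580 bases after CD and 153 after DMSO, and Eif5b at the bottom with 420 and 1808.

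By role, within 2.5 kb of the ends, the subunits of eIF2B had more covered bases after CD at 4 of 5 genes and the eIF2 kinases at 3 of 4. More covered bases after DMSO were found at 4 of 7 genes of start codon selection, 4 of 6 of the eIF2 group, 7 of 14 of eIF3, with 3 equal, and 6 of 11 of the cap binding group. The eIF4E binding proteins were even, with 2 each. DMSO covered more at 2 of 3 genes of eIF5A and eIF6 and at 1 of 2 exon junction helicases, with 1 equal in each. Over all protein-coding genes 35.8% had more after CD and 32.1% more after DMSO. Within 50 kb, the counts after CD and DMSO were 3 and 2 for eIF2B, 2 and 2 for the kinases, and 10 and 1 for cap binding. They were 3 and 4 for start codon selection, 3 and 3 for the eIF2 group, and 10 and 4 for eIF3. The eIF4E binding proteins had 4 and 0, eIF5A and eIF6 2 and 1, and the exon junction helicases 1 and 1. The 50 kb shares of all genes were 59.0% and 31.5%. Differences between the roles were not tested.

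Within 50 kb of the ends, 38 of the 56 Eif genes had more covered bases after CD (67.9%, against 59.0% of all genes) and 18 more after DMSO (32.1%, against 31.5%). None had equal coverage, against 9.44% of all genes. Covered bases averaged 4203 after CD and 3511 after DMSO over Eif genes, and 3054 and 2616 over all genes. The median difference was 450 bases over Eif genes and 262 over all genes. The CD list covers 37.3 Mb of the genome and the DMSO list 31.1 Mb. When the CD list was shortened to the covered length of the DMSO list, 27 Eif genes had more after CD and 29 more after DMSO, against 46% and 42.7% of all genes. The median difference was then −61.5 bases over Eif genes and 0 over all genes. With regions at a −log10 q of 2 and above, 25 had more after CD and 26 more after DMSO, against 34.5% and 39.1% of all genes. The largest excess after CD lay around Eif4enif1, with 13956 bases after CD and 7585 after DMSO, followed by Eif4a1 (7060 and 2141), Eif3c (5958 and 2601), Eif4g2 (5913 and 2896) and Eif3a (5255 and 2283). The largest excess after DMSO lay around Eif3j2, with 1461 and 3970, followed by Eif2a (638 and 2728), Eif1b (2029 and 3765), Eif2b3 (3294 and 4780) and Eif5b (2625 and 3823). Eif4a1 and Eif4g2 thus stood among the largest excesses after CD in both windows, and Eif2a and Eif5b among the largest after DMSO. Other genes changed direction between the windows. Among the 8 largest excesses after CD within 2.5 kb, Eif2b2 and Eif2s1 had more after DMSO within 50 kb. Among the 8 largest after DMSO, Eif4a2, Eif4e2, Eif4ebp1 and Eif1a had more after CD within 50 kb. The rest of these genes kept their direction. These windows hold other genes, and the 2 windows share their inner bases.

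Genes that act with the initiation factors but carry other symbols also had shared Flag-Rxra peaks near their ends, as did 32.6% of all genes. Initiation partners had one at 10 of 15 genes, among them Mknk2, a kinase of eIF4E (folds of 17.0 in replicate 1 and 16.1 in replicate 2), and Dhx29, a helicase of the scanning ribosome (12.2 and 18.7). Genes of eIF2 phosphorylation and the stress response had one at 8 of 10, led by Ppp1r15b, a subunit of the eIF2 phosphatase (15.3 and 18.9), Atf5 (13.5 and 18.2) and Nck1 (12.7 and 17.5). Elongation and termination factors had one at 8 of 12, led by Eef1g (16.8 and 32.9), Eef2, the translocase (18.6 and 24.8), and Gspt1, a release factor (17.5 and 19.5). Genes of mTORC1 control of translation had one at 8 of 12, led by Rps6kb1, the S6 kinase (17.3 and 23.9), Mtor itself (17.5 and 15.6) and Akt1s1 (13.7 and 16.2). Factors of mitochondrial translation had one at 5 of 9, led by Mtrf1l (17.5 and 20.8), Mrrf (16.5 and 18.1) and Tsfm (9.67 and 18.3).

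H3K27ac within 2.5 kb of these genes showed no common direction. More covered bases after CD and after DMSO were found at 7 and 7 of the initiation partners, 5 and 5 of the stress response genes, 6 and 5 of the elongation and termination genes, 5 and 6 of the mTORC1 genes, and 6 and 2 of the mitochondrial factors. Over all genes the shares were 35.8% and 32.1%. Within 50 kb the counts, in the same order, were 10 and 5, 5 and 5, 7 and 5, 6 and 6, and 7 and 2. Over all genes the 50 kb shares were 59.0% and 31.5%. No difference from all genes was tested.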

How the data were processed

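CUT&Tag was made from 2 samples each of H3K27ac after CD, H3K27ac after DMSO and Flag-Rxra. Build mm10 is named in the submitters' processing notes, along with MACS2 2.1.2, Bowtie2 2.2.5, fastp 0.20.1 and deepTools 3.4.3. Peak calling settings, any control library and the way H3K27ac replicates were joined are not given in the sources used here. For every peak, the fold over background is a ratio that the authors deposited, and the −log10 q is likewise the authors' deposited value. H3K27ac lists are broad regions down to a −log10 q of 1.00 and Flag-Rxra lists narrow peaks down to 5.00, so the mark and the factor are not on 1 scale. The depth behind the values is unknown.

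Computations used pandas 2.3.3, scipy 1.17.1 and numpy 2.4.6 under Python 3.11.15, with figures from matplotlib 3.10.9. Gene positions came from RefSeq GRCm38.p6, the assembly of mm10. Starts and promoter sequences came from a RefSeq table that held 44 of the 56 genes. It held no entry for Eif4e1b, Eif3e, Eif3h, Eif4ebp3, Eif3j2, Eif1a, Eif6, Eif2b3, Eif3i, Eif4e3, Eif4g2 and Eif4ebp1. Windows of 1, 2.5 and 50 kb lay around both annotated ends of a gene. A peak was tied to a gene when any base of it lay in the window. Where a replicate 1 peak overlapped several replicate 2 peaks, the one with the highest fold was used. Coordinates are 1-based and those of replicate 1. Overlap code was tested on simulated intervals.

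The members, gene lists and alternatives were chosen with earlier results of these data known, and the motifs after the promoters were seen. No test was made: the genes were picked for their Flag-Rxra peaks, and each H3K27ac condition has 1 list. In each of 9 roles the 3 genes with the best mean rank of fold, every gene without a shared peak, and the genes on either side of 1 kb are named, and for H3K27ac the 8 largest excesses each way within 2.5 kb, the 5 each way within 50 kb and the genes with a region in 1 condition. Values of further genes were added.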

Additional observations from a re-analysis of the deposited data

How the results depend on the processing

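The number of Eif genes with a shared Flag-Rxra peak, 35 of 56, stayed between 25 and 51 over the settings tried. It was 25 when 50% of each peak had to overlap (20.2% of all genes). It was 34 with a −log10 q of at least 10 (31.4%) and 29 with at least 20 (24.2%). It was 34 with windows of 500 bp (30.1%), 36 with 2.5 kb (37%) and 51 with 50 kb (68.1%). Without replicate 1 it was 42 (42.1%) and without replicate 2 it was 43 (41.7%). It was 29 of 44 with annotated starts only (34.3%). Leaving out peaks in H3K27ac regions whose −log10 q is at least 20 could remove no Eif peak, since no such region lies near one, and says nothing about stability. It was also 35 with replicate 2 coordinates, an alternative chosen after seeing the data. No 2 Eif genes lay within 50 kb of each other, so 1 gene per locus changed no value.

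H3K27ac counts depended on the threshold. With a −log10 q of 2 or more, a region lay near 11 genes in CD (6.65% of all genes) and 15 in DMSO (8.84%). The near window then had 11 genes with more bases in CD (9.69%) and 13 with more in DMSO (11.8%), the 50 kb window 25 with more in CD (34.5%) and 26 with more in DMSO (39.1%), and both median differences were 0. With covered lengths matched, the near median was −77.5 bases, and in the 50 kb window CD covered more at 27 genes (46%), DMSO covered more at 29 (42.7%) and the median reversed to −61.5. With windows of 1 kb in place of either, CD covered more at 20 genes (26.2%), DMSO covered more at 25 (26.7%) and the median was 0, so more genes leaned to DMSO than to CD, unlike in the 50 kb window. No replicate of H3K27ac could be left out, since each condition has 1 list. No paired analysis was possible because the H3K27ac columns carry no replicate number and no result comes from a test.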

Other observations

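Beside the protein-coding genes, 12 loci carry an Eif symbol of the same form, 11 pseudogenes and 1 long non-coding RNA gene. No Flag-Rxra peak of either replicate lay within 1 kb of an end of 11 of them. The exception was Eif2s3x-ps1 on chromosome 15, where a shared peak (chr15:75969040-75969701) had folds of 15 in replicate 1 and 20.5 in replicate 2. It also lay within 1 kb of an end of the protein-coding gene Zfp707. H3K27ac covered 557 bases within 2.5 kb of the ends of Eif2s3x-ps1 after CD and 0 after DMSO. The share over all pseudogenes and non-coding genes is not given here. The count at these loci is therefore not read beside that of the protein-coding Eif genes. How reads that match a gene and its copies were treated is not stated in the sources used here.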
